A study of Mus musculus with 2 samples.

Results

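Exons of long intergenic noncoding RNAs (lincRNAs) were interrogated on both DNA strands by a mouse oligonucleotide array, and 314 of the 1728 exons with a probe on each strand gave signal on both. A strand counted as on when its processed signal, the background-subtracted brightness that the scanner software reports, was 40 or more on the left kidney array and on the right kidney array. The members were therefore chosen by their signal, and their levels are described here without a test. The other exons divided into 934 with signal on 1 strand only (407 plus, 527 minus) and 480 with neither strand on, and 1 further exon of the 1729 had a probe on the minus strand alone.

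The samples were kidneys of male mice, left in 1 group and right in the other, with no treatment or genotype named in the labels. The series text speaks of mixing 3 left and 3 right kidneys, taken here as a separate pool for each side. Strain and age are not given in the sources used here, and a pool holds no information on variation between mice. Each side was hybridised to 1 array, so left against right differences have no replicate check and no test was made. Both arrays were scanned on the same slide at different positions, so the kidney's side and the array's place on that slide cannot be told apart. None of the 15 marker genes listed for kidney, adrenal gland, blood and fat had a probe with a gene name, so the labelled tissue was not checked against markers here.

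LincRNAs are spliced, often polyadenylated transcripts that lie between protein-coding genes and carry no long open reading frame. Some of them recruit chromatin-modifying complexes, some act only through the act of their transcription, and most have no known role. Many lincRNA loci are transcribed from both strands, for example by divergent transcription from a shared promoter or by a convergent antisense transcript that overlaps an exon. A pair of probes in opposite orientation on 1 exon reads such sense and antisense RNA separately, provided that labelling keeps the strands apart. Here the labelled cRNA was made by random priming along whole transcripts, per the labels' protocols, and the strand fidelity of that step is not given in the sources used here. The probe names carry an exon number and a + or - sign. Which genomic strand the sign refers to, the exon's position and gene, and the probe sequences were not used here, so exons are named by number only.

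Background signal set the floor of the rule. Of the 1200 spots of 20 probes named as negatives, 38 (3.17%) reached 40 at the same place on both arrays, and these belonged to MM9NEGATIVE020 (23 of 60 spots) and MM9NEGATIVE009 (15 of 60 spots). The other 18 negative probes had 0 of 1080 spots at 40 on both arrays. The plus strand was on in 721 of the 1728 exons (41.72%, exact 95% binomial interval 39.39 to 44.09) and the minus strand in 841 (48.67%, 46.29 to 51.06). Both shares lay well above that of the negatives. These intervals cover counting error only.

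Signal on 1 strand did not go with more frequent signal on the other. The shares that follow describe values that the rule used, and no test was made on them. The minus strand was on in 43.55% (39.89 to 47.26) of the 721 exons with the plus strand on, and in 52.33% (49.20 to 55.46) of the 1007 exons with the plus strand off. The plus strand was on in 37.34% of exons with the minus strand on and in 45.89% of those with it off. Both strands were on in 18.17% of the exons (16.38 to 20.07). Under the same rule, 22 of 340 other mouse lincRNA loci (6.47%, 4.10 to 9.63) and 47 of 608 loci named for human lincRNAs (7.73%, 5.73 to 10.15) had both strands on. Single strands of those classes were on in 25.59% and 28.82% (plus and minus) of the mouse loci and in 27.14% and 25.33% of the human-named ones, and the differences between classes were not tested. For the minus strand, the share where plus was on and where it was off was 25.29% and 30.04% in the mouse loci and 28.48% and 24.15% in the human-named ones, with overlapping intervals in each class.

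**Figure D1:**
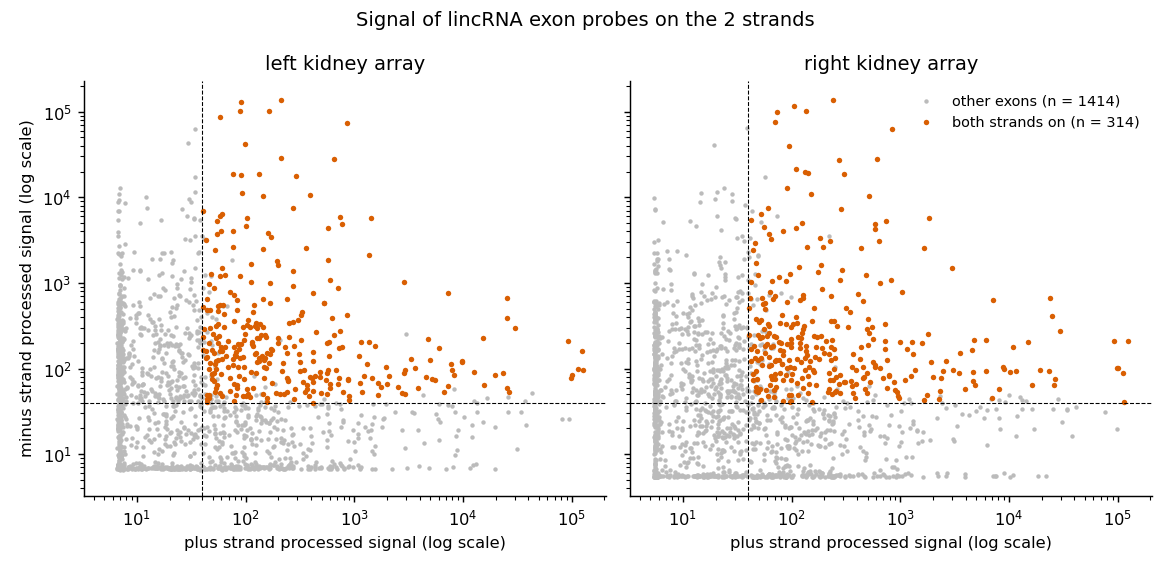
Processed signal of the plus strand probe (horizontal, log scale) against the minus strand probe (vertical, log scale) of each of the 1728 exons, on the left and the right array. Dashed lines mark 40, orange points are the 314 exons with both strands on, and the median of their brighter strand is 419 and that of their dimmer strand 88.3.

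The usual member had 1 clearly brighter strand and a dim opposite strand. The brighter strand, averaged over the arrays, had a median signal of 419 (lowest 47.2, highest 136527), and the dimmer strand a median of 88.3 (lowest 40.5, highest 1606). For scale, the median probe of the arrays stood at 65.5 in the left and 67.4 in the right kidney, below the median dimmer strand. The dimmer strand carried a median of 23.8% of the brighter strand's signal, from 0.0516% to 99.97%. Exons with only 1 strand on had a lower median of 174 on the brighter strand and 11.3 on the other. The rule shapes this contrast, since members passed 40 on both strands and these exons on 1 only.

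The 2 orientations were represented about equally. Median plus strand signals of the members were 156 in the left and 165 in the right kidney. Median minus strand signals were 154 and 165. The plus strand was the brighter one on both arrays in 141 exons and the minus strand in 152. The median strand difference, as log2 of plus over minus, was -0.12, with a middle 50% of exons between -1.85 and 2.32. A strand difference compares a pair of probes that can bind their targets with different strength, so its size is a ratio of brightness and not of RNA copies.

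The share of exons with a strand on was not higher where the opposite strand gave 40 to 1000 than where it gave less than 40. All 1728 exons were grouped by the mean signal of 1 strand, and the share with the other strand on was counted in each group, as a description of values that the rule used. The minus strand was on in 52.0% of 959 exons with a plus signal below 40 (interval 48.8 to 55.2), 48.3% of 292 at 40 to 100, 39.2% of 222 at 100 to 300 and 46.8% of 124 at 300 to 1000. Above 10000 it was on in 18 of 38 exons (47.4%, 31.0 to 64.2).

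Grouped by the minus signal, the plus strand was on in 46.0% of 839 exons below 40 (42.6 to 49.4), 38.6% of 324 at 40 to 100, 38.5% of 288 at 100 to 300 and 30.8% of 156 at 300 to 1000. Above 10000 it was on in 16 of 23 exons (69.6%, 47.1 to 86.8), with a median plus signal of 98.3. That group is small, and the corresponding plus-bright group had a median minus signal of 42.2. Across all 1728 exons, the log2 signals of the strands had a Pearson correlation of -0.03, and across the members, which were cut at 40 on both strands, -0.18. These describe exons that share the same arrays, and neighbouring exons may share a transcript.

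**Figure D2:**
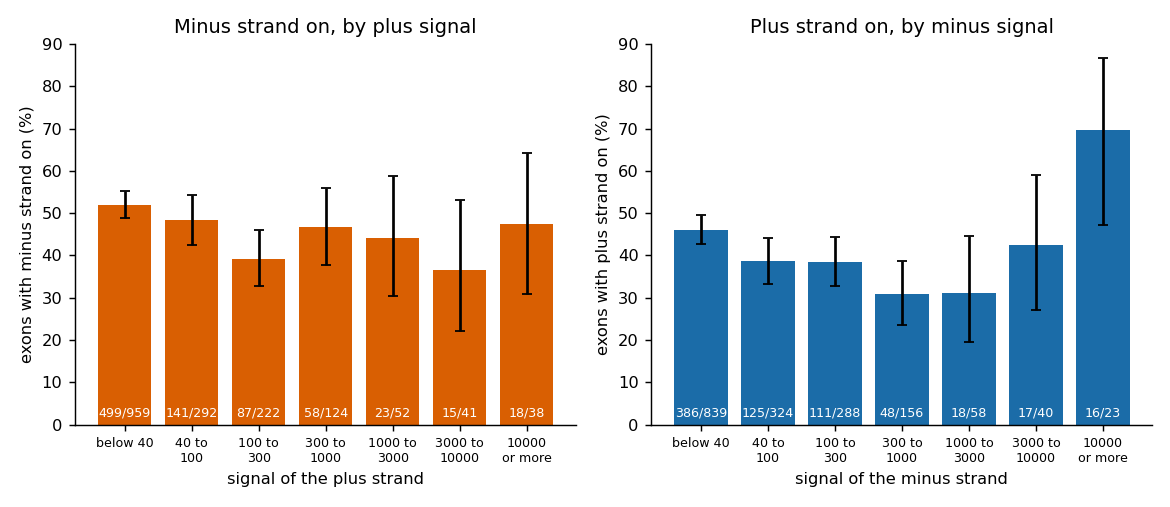
Share of exons with the other strand on (percent, bars with exact 95% binomial intervals, counts printed) by signal of the plus strand (left panel) and of the minus strand (right panel), all 1728 exons. Shares lie between 36.6% and 52.0% on the left, and between 30.8% and 46.0% on the right except for 69.6% of the 23 exons with a minus signal of 10000 or more.

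Bright neighbouring spots on the array grid were counted beside these probes. Of the 314 dimmer-strand probes, 120 (38.2%) touched a spot of 10000 or more. The off probes of the exons with 1 strand on did so in 361 of 934 cases (38.7%), and the part of such neighbours in the dim signals was not tested. The plus and minus probes of a member lay a median of 147 grid steps apart, and in 1 exon they were within 5 steps.

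The brightest members were all strongly one-sided. Ranked by the mean of log2 signals over strands and arrays, exon 10974 came first, with minus signals of 73616 (left) and 62977 (right) and plus signals of 862 and 844. The minus probe stood at the 98.5 percentile of all probes by signal, and the plus probe at the 81.1 percentile. Exon 10315 had minus signals of 137188 and 135870 beside plus signals of 214 and 241. In both exons the minus strand led by a wide margin in the left and the right kidney alike.

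Exon 10151 was led by the other strand, with plus signals of 125147 (left) and 124627 (right) and minus signals of 159 and 209. Exon 10504 had plus signals of 92722 and 92336 and minus signals of 211 and 208. Exon 11034 had minus signals of 27862 and 27651 and plus signals of 645 and 607. In these 5 exons the dimmer strand, at 159 or more, was far above the 40 of the rule on both arrays.

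Strand ratios beyond 1000-fold on both arrays were found in 6 of the members, 3 led by each strand. Averaged over the arrays, the widest log2 strand difference was 10.92 in the members and 12.06 in the exons with only 1 strand on. Exon 10435 had the largest strand difference among the members, averaged over the arrays. Its plus signals were 126562 (left) and 114434 (right) against minus signals of 95.9 and 40.2. The log2 strand difference was 10.37 (left) and 11.48 (right). Its right minus value of 40.2 ± 7.02 (error of the scanner software's error model) lay below the 95th percentile of that array's negative spots, 41.3, so its rank rests on a probe near background. In the left kidney exons 11837 and 12032, described next, differed more. Exon 10465 stood at 10.17 and 10.32, and exon 11149 at 10.20 and 9.98. All 3 had minus signals of 101 or less on each array.

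Exon 11837 led the other direction, with minus signals of 86497 (left) and 75922 (right) against plus signals of 57.7 and 70.2, a log2 strand difference of -10.55 and -10.08. Exon 12032 stood at -10.48 and -10.12, and exon 10608 at -10.18 and -10.41. Exon 11341 (10.32 and 9.91) and exon 10151 (9.62 and 9.22) completed the 5 widest plus-led members. Exons 12118 (-9.28 and -9.53) and 10315 (-9.33 and -9.14) completed the 5 widest minus-led members. Of the 59 exons with a strand above 10000 on both arrays, 32 were members, 16 of them led by the plus strand. Such exons have a strand on by definition, so their membership rests on the opposite strand alone. Over all 1728 exons the minus strand was on in 48.67% and the plus strand in 41.72%. The difference from these shares was not tested.

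Comparable signal on both strands at a solid level was the exception. Both strands reached 100 on both arrays in 106 members, 200 in 45, 500 in 13 and 1000 in 3. The 3 above 1000, chosen after their values were seen, were exons 11331, 12026 and 10910. Exon 11331 had plus signals of 1414 (left) and 1824 (right) and minus signals of 5707 and 5718. Exon 12026 had plus signals of 1375 and 1666 and minus signals of 2110 and 2590. Exon 10910 had plus signals of 2868 and 3001 and minus signals of 1034 and 1511. In all 3 the same strand was the brighter one on both arrays.

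Among the 45 exons with both strands at 200 or more, exon 10605 had the closest pair. Its plus signals were 273 ± 28.2 (left) and 332 ± 33.7 (right) and its minus signals 349 ± 35.6 and 304 ± 30.9, where the error is again that of the software's model. The minus strand was brighter on the left and the plus strand on the right, so its order was not settled. Exon 10306 had plus signals of 305 and 262 and minus signals of 368 and 311. Exon 10432 had plus signals of 525 and 451 and minus signals of 589 and 616. Exon 10646 had plus signals of 715 and 827 and minus signals of 865 and 1086. Exon 10975 had plus signals of 327 and 233 and minus signals of 213 and 217. Between exons 10306, 10432 and 10646 the minus strand was the brighter on both arrays, by a log2 difference of 0.26 to 0.33 on average. At the other end of the brightness range, 22 members had all 4 signals below 100.

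The same strand was brighter on both arrays in 293 of the 314 members (93.3%). Over all 1728 exons, the share was 91.2%, and since the rule used these signals nothing is read from the pair of shares. The strand difference was at least 2-fold on both arrays in the same direction in 211 members (67.2%, against 70.0% of all 1728 exons), of which 106 were plus-led and 105 minus-led. It was at least 10-fold in 94 members (50 plus-led, 44 minus-led) and at least 100-fold in 29 (15 and 14). The difference exceeded 2 times its software error on both arrays in 250 members, and lay within that error on both arrays in 29. The median absolute strand difference was 2.07, which is a 4.21-fold ratio.

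**Figure D3:**
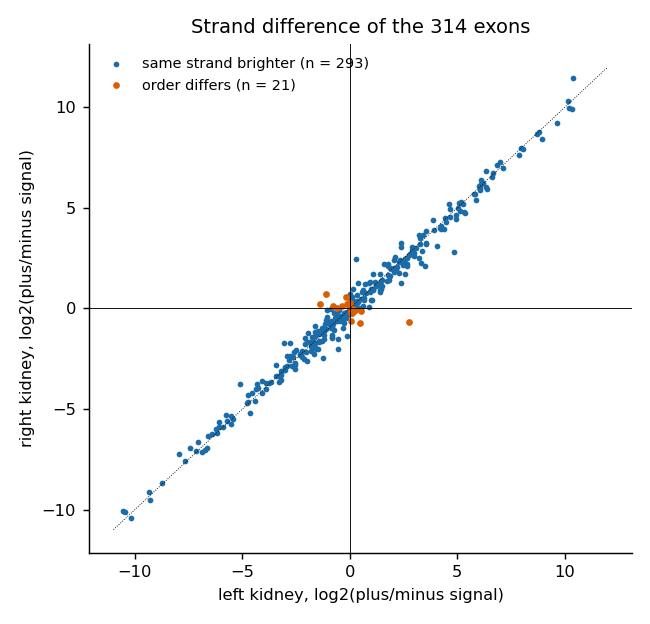
Strand difference of the 314 exons, log2 of plus over minus signal, on the left array (horizontal) and on the right array (vertical), with the line of equality dotted. The 293 blue exons keep the same brighter strand, and of the 21 orange ones exon 10840 lies far off the line at 2.73 on the left and -0.66 on the right.

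Left and right strand differences of the members had a Pearson correlation of 0.99 over 314 exons, which share both arrays. Their change from left to right had an SD of 0.51, against an SD of 3.81 (left) and 3.74 (right) for the strand difference itself. In the 21 exons whose order turned, the larger of the 2 absolute strand differences had a median of 0.29. The change was at least 2-fold in 16 exons. Exon 10840 changed most, with plus signals of 351 (left) and 319 (right) and minus signals of 52.8 and 506. Exon 10991 followed, with plus signals of 112 and 491 and minus signals of 91.8 and 89.4. Exon 10788 had plus signals of 1764 and 1800 and minus signals of 61.3 and 256. In each of these 3 exons 1 probe differed between the arrays while the signals of its partner were close.

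Left and right kidney gave similar signals on the member probes. In whole-tissue RNA, fewer cells of a type and less RNA per cell cannot be told apart. The left minus right difference, on log2 signals after subtracting the 75th percentile of each array, had a median of -0.02 and an SD of 0.36 over the 628 probes of the 314 exons. The median over all 33522 probes of the array at 40 or more on both sides was 0.01, with an SD of 0.29. Of the member probes, 290 were higher in the left kidney and 338 in the right, and 453 (72.1%) lay within 1.2-fold, beside 75.2% of all 33522 probes. Under median scaling the member median turned to 0.02, while that of all probes moved to 0.06, so the direction of so small a shift depends on the scaling.

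A 2-fold difference between the sides was found for 16 member probes, 6 higher on the left and 10 on the right. This is 2.55% of 628 (1.46 to 4.11), where 0.916% of all 33522 probes were 2-fold apart (0.409% with the left higher, 0.507% with the right higher). The on strands of exons with 1 strand on had 6 of 934 (0.642%, 0.236 to 1.39). These intervals cover counting error only and take the probes as independent, although several of the 16 were neighbours on the array, as described below. They do not measure variation between kidneys. At like brightness, the members' count was 6 of 219 (2.74%, against 1.40% of all probes) at a mean signal of 40 to 100, 7 of 196 (3.57%, against 1.52%) at 100 to 300, 3 of 106 (2.83%, against 0.623%) at 300 to 1000 and 0 of 107 (against 0.237%) above 1000. With the limit of the rule at 60 in place of 40, 9 of 406 member probes (2.22%) were 2-fold apart, against 0.679% of all probes at that limit. At 80 it was 3 of 304 (0.987%, against 0.586%) and at 100 2 of 212 (0.943%, against 0.523%). At 1.5-fold the member count was 38 (6.05%), beside 4.32% of all probes.

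**Figure D4:**
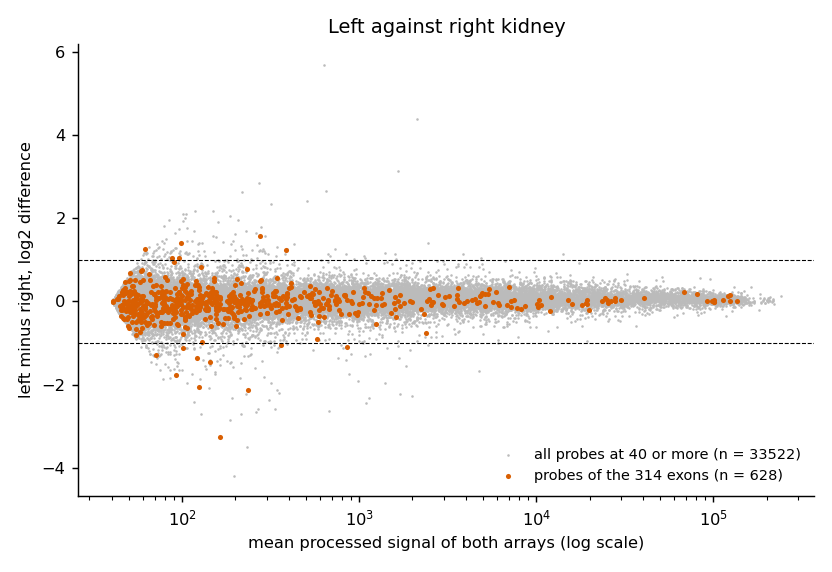
Left minus right log2 difference (vertical) against mean processed signal of both arrays (horizontal, log scale) for the 628 probes of the 314 exons (orange) and all 33522 probes at 40 or more (grey), dashed lines at 2-fold. The 16 member probes beyond the lines all have a mean signal below 1000, and the widest is at -3.26.

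The 16 probes belonged to 16 different exons, and in 0 of the 314 exons did both strands differ 1.5-fold in the same direction. Only 38 of the 628 member probes (6.05%) were 1.5-fold apart, so few such pairs could occur and nothing is read from the 0. No count over all 1728 exons stands beside it. Both strands were higher on the left in 68 exons, both higher on the right in 92, and in 154 the strands went opposite ways. These counts also have no share over all exons beside them. With 290 of the 628 member probes higher on the left and 338 on the right, nothing is read from them. The dimmer strands had a median of -0.06 (9 of 314 probes 2-fold apart) and the brighter strands 0.00 (7 of 314).

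Higher on the right by the most was the minus probe of exon 10840, at 52.8 ± 8.78 (left) and 506 ± 50.9 (right), a log2 difference of -3.26 or 9.59-fold. The plus probe of exon 10991 stood at 112 and 491 (-2.13) and the minus probe of exon 10788 at 61.3 and 256 (-2.06). The minus probe of exon 10649 stood at 49.8 and 170 (-1.77), and that of exon 10140 at 86.5 and 238 (-1.46). All 5 had a left signal of 112 or less.

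Higher on the left by the most was the minus probe of exon 11321, at 475 ± 48.0 (left) and 159 ± 16.9 (right), a log2 difference of 1.57 or 2.98-fold. The minus probe of exon 10828 stood at 162 and 60.6 (1.41), and the minus probe of exon 10435 at 95.9 and 40.2 (1.25). The plus probe of exon 11711 stood at 594 and 253 (1.23), and that of exon 11761 at 127 and 60.9 (1.06). Each value is that of 1 spot per array.

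Several of these probes were neighbours on the glass. The probes of exons 10991 and 10788 occupied columns 145 and 146 of row 43, and those of exons 11321 and 11711 columns 95 and 96 of row 363, each pair shifted in the same direction. The probes of exons 10828 and 11761 lay 3.61 grid steps apart and were shifted alike, and the minus probes of exons 10840 and 10649 both lay in column 1 of the 164 columns. The 6 nearest tested probes had a median difference of -1.81 around the exon 10991 probe and 1.11 around the exon 11711 probe, against -0.31 around that of exon 10840 and -0.03 around that of exon 10649. After subtracting the median of the 18 nearest tested probes, exon 11711 stood at 0.28, exon 11321 at 0.99 and exon 10840 at -3.19. With this correction 12 of the 628 member probes were 2-fold apart, 2 with the left higher and 10 with the right higher. Beside these 12 stood 292 of all 33522 probes, and 5 of the 934 on strands of exons with 1 strand on. Of the 16 probes, 11 stayed 2-fold apart, and the minus probe of exon 10231 joined them at -1.06. The adjacent probes of exons 10991 and 10788 stayed, at -1.91 and -1.74. Around them the 6 nearest tested probes had medians of -1.81 and -1.39, and the 18 nearest -0.23 and -0.32. Whether their shifts came from the array surface was not tested. The 6 member probes of column 1 had a median difference of -0.50, and all 212 probes of that column at 40 or more a median of -0.03.

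**Figure D5:**
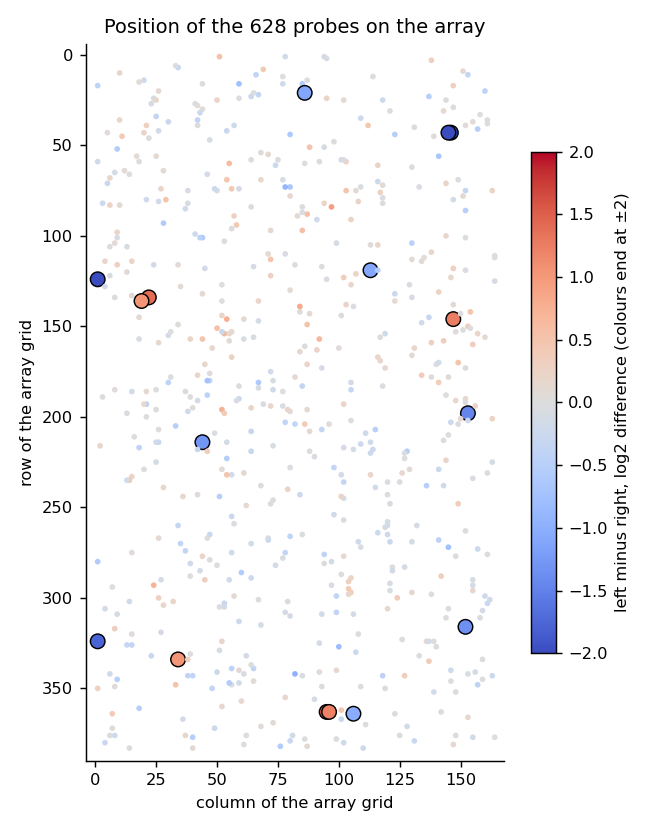
Position of the 628 member probes on the array grid (column against row), coloured by left minus right log2 difference, with the 16 probes of 2-fold or more drawn large and outlined. The outlined probes include adjacent pairs of like colour in rows 43 and 363 and 2 probes in column 1.

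Members were spread over the exon numbers rather than gathered in blocks. What the order of the numbers means is not given in the sources used here. Of the 530 measured exons whose number was next to a member's, counted once per member, 100 (18.9%) were members themselves, beside 18.2% of all exons. The 314 members formed 264 runs of consecutive numbers, 219 of them single, 40 of length 2 and 5 of length 3. Among the 50 consecutive pairs of members, the same strand was the brighter in 24 (48.0%), and among all 1531 consecutive pairs of exons in 821 (53.6%).

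The 5 longest runs were exons 10761 to 10763, 11078 to 11080, 11444 to 11446, 11555 to 11557 and 11757 to 11759. In the run 11444 to 11446 the minus strand led throughout, with minus signals of 641, 118 and 579 on the left against plus signals of 146, 47.1 and 168, and on the right of 720, 92.6 and 514 against 127, 46.8 and 162. In the run 11757 to 11759 it led as well, with log2 strand differences of -3.44, -2.64 and -0.31 (left) and -3.34, -2.39 and -0.48 (right). In the run 11555 to 11557 the leading strand alternated, at -3.23, 1.44 and -2.09 (left) and -3.35, 1.11 and -1.77 (right). In the run 10761 to 10763 the outer exon 10763 was bright on both strands (plus 733 and 585, minus 5960 and 4852), while exons 10761 and 10762 had all signals below 60. In the run 11078 to 11080 the strands of exon 11079 were level, at plus signals of 132 and 147 and minus signals of 132 and 124.

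Exons near the limit show how fine the choice was. Just inside it lay exon 10393, with minus signals of 40.01 ± 7.89 (left) and 51.2 ± 7.50 (right), exon 11075, with minus signals of 64.5 and 40.2, and exon 10435. Just outside it lay exon 11620, with a left plus signal of 39.98 ± 8.14, exon 10271, with plus signals of 47.9 and 39.89, and exon 10592, with minus signals of 39.74 and 51.9. These distances to 40 are smaller than the software's error of a single spot.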

How the data were processed

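RNA of left and right kidneys was measured on 1 single-colour Agilent array each. Per the submitters' processing notes and the file headers, the authors read the images in Agilent Feature Extraction (version 11.0.1.1). The deposited intensity is corrected for background and for trends across the array surface, and arrays were not normalized against each other. The series table the authors deposited equals these intensities in all 62513 spots of each array (relative tolerance 1e-05), on a linear scale with no centring, with column medians of 58.6 and 61.0. No spot was saturated. The deposited flags (well above background, outlier) are other values of 0 or 1, per the file headers.

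From these, spots of a probe were averaged on log2. Each lincRNA exon strand has 1 probe and 1 spot. Left minus right differences use log2 signal minus the 75th percentile over 59709 probes (signal 422 left, 421 right), and strand differences use log2 signal within an array. The 2-fold limit is a log2 difference of 1. Member exons, limits and lists were chosen with earlier results of these data known. Exons are named by rules on level, strand difference, side difference, distance to the limit and run length, and any others are said to be chosen after seeing their values. The number of arrays limits the precision. Alternatives were other limits, the background flag, negatives, normexp (limma 3.58.1, R 4.3.3, on median spot signal and median local background), flagged spots, other scalings and position correction. Python 3.11.15 with numpy 2.4.6, pandas 2.3.3 and scipy 1.17.1 was used, tested on simulated data.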

Additional observations from a re-analysis of the deposited data

How the results depend on the processing

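The number of exons with both strands on followed the limit: 430 at a signal of 30, 203 at 60, 152 at 80 and 106 at 100, with 396 by the software's well above background flag and 312 by the 95th percentile of negative spots. Exons with a 2-fold strand difference on both arrays were 132 at 60, 97 at 80 and 64 at 100, and those with the same strand brighter 191, 144 and 99, so their shares of the members stayed between 60.4% and 67.4% and between 92.6% and 94.7% over these limits and the flag. With normexp these shares were 56.4% and 95.2%. The median absolute strand difference was 1.656 at a limit of 100 and 1.383 with normexp, whose offset of 50 shrinks dim differences by construction. Probes 2-fold apart between the sides, 16 in the report, were 9 at 60, 3 at 80, 2 at 100 and 5 with normexp (1 of them higher in the left kidney). They were 15 to 17 under median scaling, quantile normalization, cyclic loess and no scaling, and 14 without the 6 exons that have a probe in column 1, which was chosen after seeing the data. Members with a neighbouring number that is also a member were 95 at 40, 173 at 30, 54 at 60, 26 at 80, 12 at 100 and 148 by the flag. These counts follow the share of exons that are members, which was 24.9% at 30, 18.2% at 40 and 6.13% at 100. The median side difference lay between -0.030 and 0.024 in all 14 alternatives and was positive only under median scaling. Without flagged spots the same 314 exons were members. Normexp was run on the same members, so it gives no number of exons or of neighbours. No paired analysis was possible because each side has 1 array. Dim signals limit these values, since a single spot near 40 has a software error of 7 to 8.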
